A study of Mus musculus with 14 samples.

Results

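The cytosolic ribosomal protein genes were followed here over mouse small intestine of 2 ages. They were taken as the probe sets annotated to exactly 1 gene symbol of the form Rpl or Rps followed by a number, with Rplp0, Rplp1, Rplp2 and Rpsa added. This gave 48 of 12394 genes, measured by 100 of 22690 probe sets, with 46 probe sets for 26 genes of the large subunit and 54 for 22 genes of the small subunit. A further 102 probe sets carried several symbols of which at least 1 had this form, and they were kept out, so Rplp1 and several other ribosomal protein genes were not followed. The rule uses no measured value. A probe set is a group of short array probes for 1 transcript, and 25 genes had 1 probe set while the others had up to 6. Probe sets of 1 gene are not replicates of each other, and the 42 whose names end in _x_at or _s_at may share probes with related transcripts.

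RNA was measured on 14 single-colour arrays in 4 groups. Crypts and villi came from the small intestine of C57BL/6 mice aged 12 weeks, with 3 arrays per group and a single mouse described for each sample. Crypts hold the stem cells and the dividing cells of the epithelium, and villi carry its mature, mainly absorptive cells. Endoderm, which gives rise to that epithelium, and mesenchyme, which gives rise to the stroma and muscle around it, were taken at embryonic day 12 (E12), with 4 arrays each. Both E12 layers were separated after collagenase digestion, and each array held a pool of 10 to 12 fetuses, or of 35 fetuses for 1 array per layer. No strain is given for the E12 fetuses, and no group carried a transgene, deletion or treatment in the labels. The values are log2 signals in 2 tables, from 2 array platforms, that were normalised apart. The adult table held the crypt and villus arrays and the E12 pair from 35 fetuses, and the E12 table held the other 6 E12 arrays. The main tests stayed within a table, and 1 alternative joined the 8 E12 arrays with the table as a block.

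The labelled tissues were checked against short lists of marker genes. All 5 villus markers were higher and 4 of 5 crypt markers lower in villi than in crypts, and all 5 endoderm markers were higher and all 5 mesenchyme markers lower in E12 endoderm than in E12 mesenchyme. T cell markers were higher in villi for 4 of 4 genes, with a summed linear signal of 2118 to 4901 in villus arrays and 271 to 366 in crypt arrays. None of the 3 smooth muscle, 3 endothelial, 3 red cell and 2 neural markers measured was called between crypt and villus. Of these, Hbb-bh1, Pecam1, Emcn and Tubb3 were too dim to be tested. The red cell list is of primitive, embryonic red cells, so it says nothing of adult blood. Among the 5 mesenchyme markers, Vim was higher in villi by 0.65 (adjusted p of 0.047 by limma), and 0 were lower. Col3a1 and Twist1 of that list were too dim to be tested. In bulk samples, fewer cells of a type and less RNA per cell cannot be told apart.

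Cytosolic ribosomes are built from a large and a small subunit, each a scaffold of ribosomal RNA that carries many ribosomal proteins. Their mRNAs belong to the 5′ TOP class: they begin with a C followed by a run of pyrimidines, a feature through which mTOR signalling is known to control their translation. Growing and dividing cells, such as those of the crypt, are known for a high rate of ribosome production. Ribosomal protein mRNAs are among the most abundant in most cells, so their probe sets tend to lie near the top of an array's range.

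The start of the transcript is shown for 8 members that mark the ends of the results below: the members with the largest falls from crypt to villus, the stalk protein Rplp2, the near-flat Rps27 and Rps27l, and Rpl14, which differed between the E12 layers. Each line gives 10 bases before the annotated start and 20 from it, read 5′ to 3′ from the RefSeq promoter table of GRCm38.p6, and capitals mark a C followed by at least 4 pyrimidines within 5 bases of the start. Both the sequence and the run are on the strand of the gene.
Rpl35, chr2:39005112-39005141, minus strand: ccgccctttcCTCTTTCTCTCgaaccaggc
Rps18, chr17:33955646-33955675, minus strand: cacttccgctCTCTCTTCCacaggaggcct
Rps15, chr10:80292421-80292450, plus strand: cagagctcgcgataactgcgcaagcgcagc
Rpsa, chr9:120127756-120127785, plus strand: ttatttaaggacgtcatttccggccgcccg
Rplp2, chr7:141447641-141447670, plus strand: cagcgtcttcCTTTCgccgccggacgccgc
Rps27, chr3:90213629-90213658, minus strand: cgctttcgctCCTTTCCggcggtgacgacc
Rps27l, chr9:66946076-66946105, plus strand: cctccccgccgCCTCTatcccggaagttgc
Rpl14, chr9:120571507-120571536, plus strand: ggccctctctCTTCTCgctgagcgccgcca
A C at the start itself with at least 4 pyrimidines after it was found in 8 of the 42 member genes with an entry in the table. That is 19.0%, against 3.01% of 27025 genes. In all 8 the base before that C was also a C or T, so the stretch of pyrimidines itself began further upstream. Such a run was found within 5 bases of the start in 20 of 42, or 47.6%, against 21.2%. A gene with several entries was counted if any of them had the run. Rpsa and Rps15, whose levels fell with those of Rpl35, had no such run in this window. Rps27 had one, and so did the Rps27l entry shown, while the other Rps27l entry had none. The median difference between villi and crypts was -1.32 for the 43 tested probe sets of genes with the run and -1.21 for the 33 without it. The TOP class as described above takes in members without a match too. The split therefore does not set TOP mRNAs against others, and no conclusion is drawn from it. A match describes these letters only.

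In every crypt array the ribosomal protein genes were among the brightest on the array, and in every villus array they were lower. The median log2 signal of the 100 probe sets was 11.21, 11.31 and 11.47 in crypts 12, 21 and 41. It was 10.56 in villus 12, 9.31 in villus 41 and 10.17 in villus V275. In the lone E12 endoderm and mesenchyme arrays of the same table it was 11.73 and 11.76. The 3 villus arrays therefore lay apart from the other 5, and they were also spread among themselves, while crypt arrays were close to each other.

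**Figure D1:**
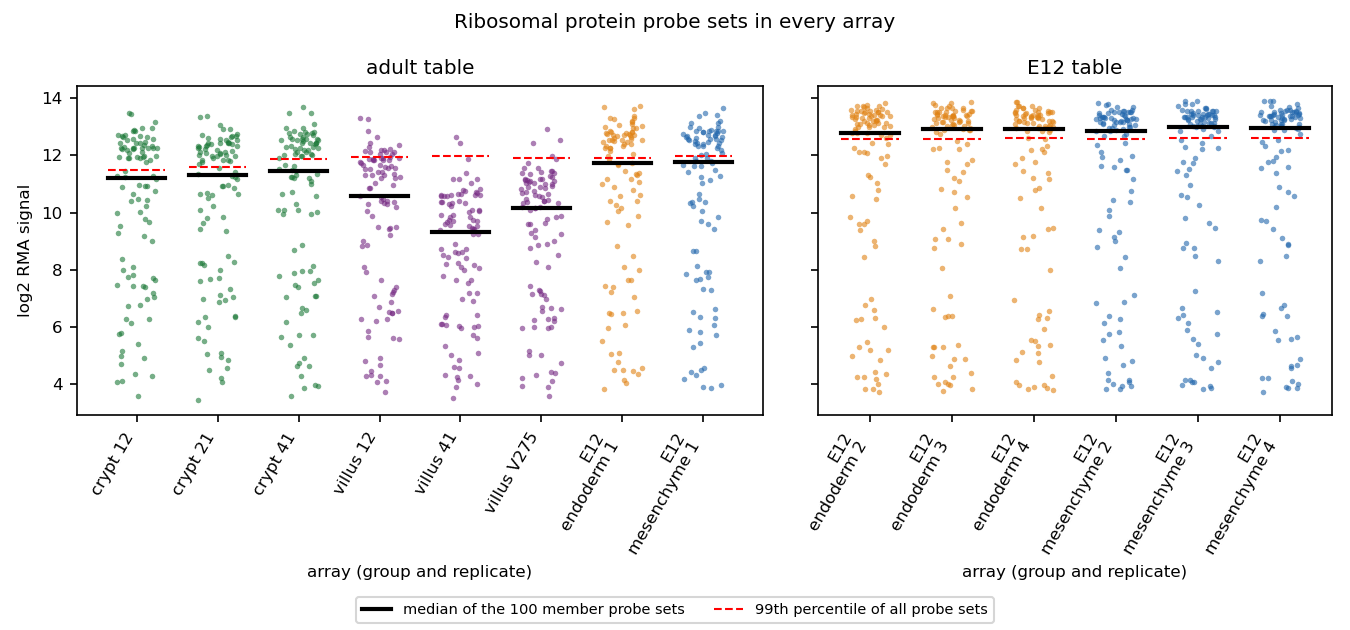
Log2 RMA signal (vertical axis) of the 100 ribosomal protein probe sets (points) in each of the 14 arrays (horizontal axis), with the adult table on the left and the E12 table on the right; black lines are the member medians and red dashed lines the 99th percentile of all probe sets. The member medians run from 9.31 to 10.56 in villi and from 11.21 to 11.47 in crypts, and they lie above the 99th percentile in the 6 arrays of the E12 table.

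The top of the signal range held many of these probe sets. Between 46 and 48 of them exceeded the 99th percentile of the array in the crypts and the lone E12 arrays, against 17, 2 and 4 in villi 12, 41 and V275. Across the 6 other E12 arrays 54 or 55 did so, and 23 to 42 lay within 1 log2 unit of the array's maximum. The lone E12 mesenchyme and endoderm arrays had 10 and 15 such members, and each crypt and villus array 0 to 3. The 2 crypt arrays 12 and 21 had a 99th percentile of 11.48 and 11.60, against 11.89 to 11.96 in the other arrays of that table. The brightest member was Rpl41 in both tables, which encodes a very short large-subunit protein, with signals of 12.63 to 13.70 in the adult table and 13.82 to 13.90 in the E12 table. The dimmest was Rps20 1450417_a_at in the adult table, at 3.43 to 4.47, although other probe sets of Rps20 were bright, and Rpl39l, a copy of Rpl39 known from the testis, in the E12 table, at 3.71 to 3.86. Rpl3l, a copy of Rpl3 known from muscle, was also dim, at 4.51 to 5.09 in the adult table.

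Between villus and crypt, the axis named in the series title, ribosomal protein genes of both subunits were lower in villi. Limma was run on probe sets whose signal passed the table's 30th percentile in at least 3 arrays, which left 88 member probe sets of 46 genes among 14916. Of these, 65 were lower and 1 was higher at an adjusted p under 0.05, against a background of 15.1% of all tested probe sets lower and 16.6% higher. The median difference was -1.20, a 2.30-fold lower signal, with a range of -2.24 to 0.81, while the median over all tested probe sets was 0.00063. Every villus array lay below every crypt array for 76 of the 88, against 23.8% of all tested probe sets. The 12 probe sets left out as dim were mostly second probe sets of genes that were also tested, with only Rpl3l and Rpl39l not tested at all.

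By gene, all tested probe sets were lower for 26 of the 46 genes and some were lower for 13. None was called for 6 genes and 1 gene was higher, and no gene had probe sets called in opposite directions. The large subunit gave 36 of 42 probe sets lower with a median of -1.20, and the small subunit gave 29 of 46 lower and 1 higher with a median of -1.19. Probe sets ending in _x_at or _s_at gave 29 of 41 lower and the other types 36 of 47. The medians of the subunits thus lay close together, and a test of the difference between them was not made.

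**Figure D2:**
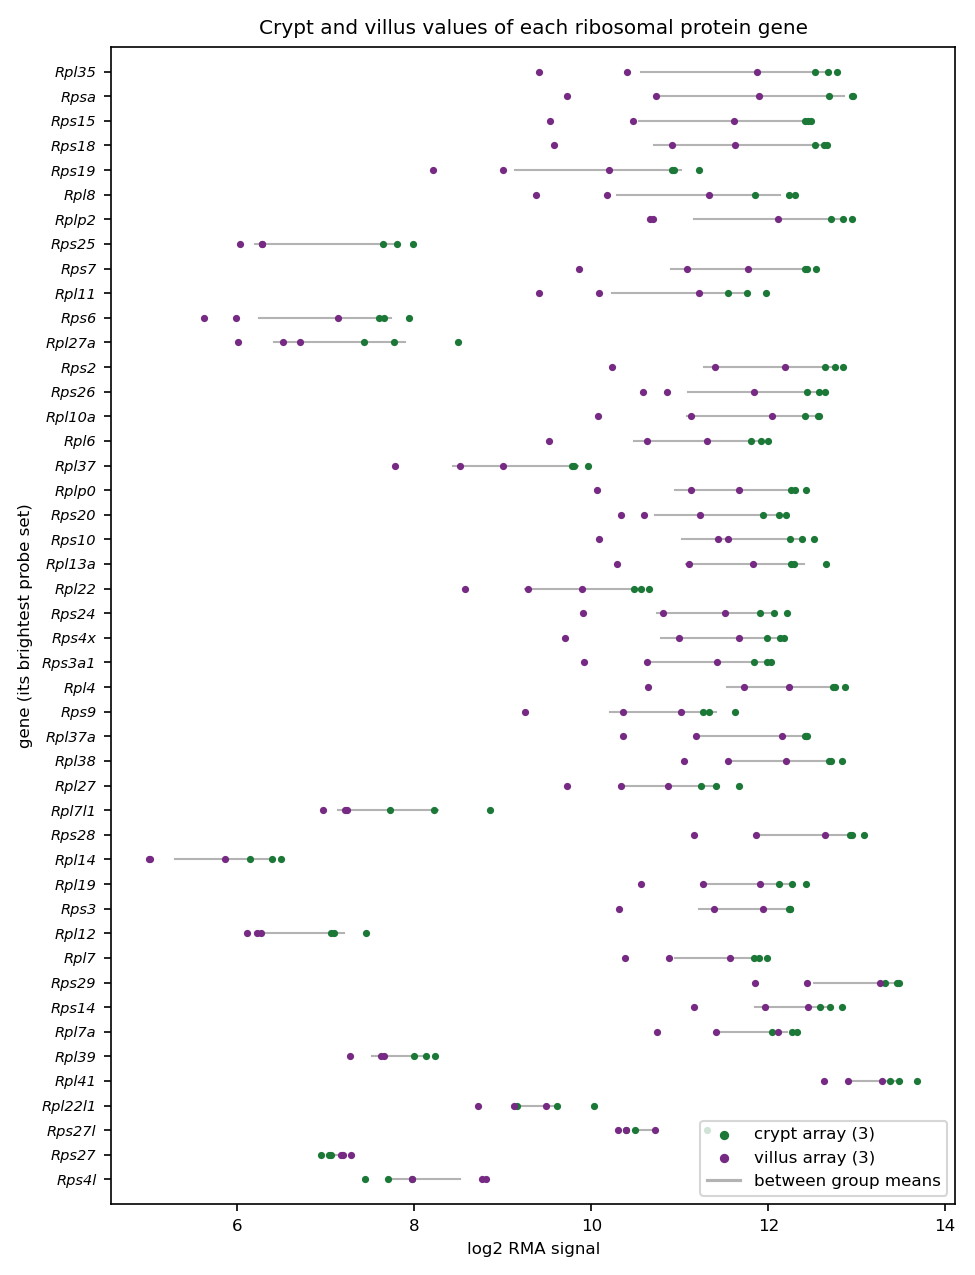
Log2 RMA signal (horizontal axis) in the 3 crypt arrays (green) and 3 villus arrays (purple) for the brightest tested probe set of each of the 46 genes (vertical axis), ordered by the difference between group means, which the grey lines join. Rpl35 and Rpsa at the top have the largest falls, villus values spread more widely than crypt values in most rows, and Rps27 and Rps4l at the bottom are higher in every villus array.

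The largest falls were in Rpl35, a protein at the exit of the large subunit's peptide tunnel. The probe set Rpl35 1436840_x_at read 11.45, 11.76 and 11.53 in crypts 12, 21 and 41 and 10.36, 8.41 and 9.25 in villi 12, 41 and V275. All villus values were below all crypt values, villus 41 furthest. The difference was -2.24 ± 0.44 (SE, 3 arrays per group), a 4.72-fold lower signal with an adjusted p of 0.0080. The next Rpl35 probe sets differed by -2.14, -2.10 and -1.95. A dim one, Rpl35 1454833_at, read 6.08 to 6.32 in every adult array and differed by 0.0018 with an adjusted p of 0.99.

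Rpsa, a small-subunit protein also known as a laminin receptor, read 12.94, 12.68 and 12.95 in the crypts and 11.90, 9.73 and 10.73 in villi 12, 41 and V275. The groups did not overlap, and the difference was -2.08 ± 0.48 (SE, 3 arrays per group), a 4.22-fold lower signal with an adjusted p of 0.015. Among other small-subunit members, Rps15 1416088_a_at differed by -1.91 (adjusted p of 0.017), Rps18 1435712_a_at by -1.90 (adjusted p of 0.018) and Rps9 1434624_x_at by -1.90 (adjusted p of 0.0042). Rps9 read 10.03, 10.69 and 10.66 in the crypts and 9.22, 8.17 and 8.29 in the villi, so villus 12 was again the least changed. Rps15 and Rps18 lie in the small subunit's head.

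The stalk of the large subunit, which recruits elongation factors, is formed by Rplp0 with Rplp1 and Rplp2. Rplp0 read 12.25, 12.30 and 12.43 in the crypts and 11.67, 10.06 and 11.12 in villi 12, 41 and V275. Rplp2 read 12.84, 12.71 and 12.94 in the crypts and 12.11, 10.70 and 10.67 in the villi. Neither gene overlapped between the groups. Rplp0 fell by 1.38 ± 0.37 (SE, adjusted p of 0.026 by limma) and Rplp2 fell by 1.67 ± 0.37 (SE, adjusted p of 0.013 by limma).

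Not all members moved alike. The single member higher in villi was Rps4l, an autosomal copy of the X-linked Rps4x, which read 7.44, 7.71 and 7.97 in crypts and 8.81, 7.98 and 8.77 in villi 12, 41 and V275. The lowest villus value exceeded the highest crypt value by a narrow margin, and the difference was 0.81 ± 0.26 (SE, 3 arrays per group), 1.76-fold, with an adjusted p of 0.047. It was not called in 5 of the 6 fits that left out 1 array, where the adjusted p ran from 0.059 to 0.15, and it was called without villus 41. Rps27, for which the villus arrays also lay above the crypt arrays, differed by 0.20 with an adjusted p of 0.28. Rps4x 1420303_x_at, a dim probe set, differed by 0.028 with an adjusted p of 0.91. The other tested Rps4x probe set, the bright 1416276_a_at, differed by -1.31 with an adjusted p of 0.057, and its villus and crypt values did not overlap.

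The copies of other ribosomal protein genes differed among themselves. Rps27l, a copy of Rps27 known as a p53 target, read 10.23, 10.62 and 11.01 in crypts 12, 21 and 41 and 10.07, 10.66 and 10.17 in the villi for its probe set 1450925_a_at. These values overlapped, and the 3 Rps27l probe sets differed by -0.26, -0.30 and -0.32 with adjusted p from 0.34 to 0.50. Rpl22l1, a copy of Rpl22, differed by -0.49 with an adjusted p of 0.22, and 1 villus value lay above the lowest crypt value. Its parent Rpl22 was lower for both of its probe sets, by -1.32 (adjusted p of 0.016) and -1.09 (adjusted p of 0.019). Differences between a copy and its parent were not tested.

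Rpl7l1, a copy of Rpl7 known from ribosome assembly, was lower in both probe sets, by -0.72 (adjusted p of 0.042) and -1.13 (adjusted p of 0.019). Rpl7 itself was lower in all 3 of its probe sets, by -1.14, -0.96 and -0.94. Rpl39, a small protein of the peptide tunnel, differed by -0.60 with an adjusted p of 0.025. Rpl41, the brightest member, differed by -0.57 with an adjusted p of 0.063, although its villus and crypt values did not overlap. The other 2 tested Rpl41 probe sets, named after their values were seen, were lower, 1422623_x_at by -0.64 (adjusted p of 0.030) and 1454639_x_at by -0.71 (adjusted p of 0.035). Besides Rps27, Rps27l, Rpl22l1 and Rps4x, the genes with no call were Rpl7a and Rps3, named here after their values were seen, at -0.79 (adjusted p of 0.10) and -1.03 (adjusted p of 0.071).

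The size of the fall differed between the villus samples in the same order for most members. Villus 41 was the lowest of its group for 76 of the 88 tested probe sets and villus 12 the highest for 76. Set against the crypt mean, the median member differed by -0.55 in villus 12, -1.91 in villus 41 and -1.19 in villus V275. The median SD of a member among villi was 0.68, against 0.20 over all tested probe sets, and among crypts it was 0.14 against 0.19. The summed linear signal of the 5 crypt markers ran from 1833 to 9484 over the villus arrays, against 29370 to 31996 over the crypt arrays. T cell markers were also higher in villi, with the sums given above. The part of crypt cells or T cells in the result was not tested.

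The count of calls moved with single arrays. Leaving out crypt 12, 21 or 41 left 20, 12 or 20 probe sets lower, and leaving out villus V275 left 34. Leaving out villus 12 gave 76 lower, and leaving out villus 41 gave 57. The median stayed between -0.89 and -1.59 in these fits. Calls over all probe sets are not given for these fits or for the later ones with fewer arrays. A changed count of members is therefore not read as particular to them. Among the 18 named members that fell, Rpl35 1436840_x_at and Rps9 1434624_x_at were called in all 6 of the fits, and Rpl7l1 1426386_at in none of them. Rpl7 1415979_x_at and 1426162_a_at were called in 1 of the 6, Rplp0, Rpsa, Rps15, Rps18 and Rpl39 in 3, and the largest adjusted p of the 18 was 0.12.

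The members' direction differed from that of other probe sets of like brightness. Among probe sets whose mean passed the 99th percentile, 30 of 39 members were lower, a share of 76.9%, with a median of -1.21. Of the 152 other probe sets in that range, 7 were lower and 75 higher, with a median of 0.67. Between the 95th and 99th percentiles, 16 of 22 members were lower, against 99 of 775 other probe sets, of which 321 were higher. Below the 95th percentile 19 of 27 members were lower and 1 was higher, against 2078 lower and 2086 higher of 13901 other probe sets. The dimmer members thus moved in the same direction as the bright ones.

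Other genes of protein synthesis are given by list, each list beside the background of 15.1% lower and 16.6% higher. For the unadjusted counts, the background is 6318 of 14916 tested probe sets with an unadjusted p under 0.05 in either direction. Of 10 probe sets on the elongation factor list, 6 were lower and 0 higher, with a median of -1.09 and 7 at an unadjusted p under 0.05. Eef1d and Eef1b2, which exchange the nucleotide on the elongation factor that brings tRNA to the ribosome, led with -1.89 and -1.80. Of 63 probe sets for initiation factors, 32 were lower and 3 higher, with a median of -0.66. Eif1ax, which helps to scan for the start codon, and Eif3a, the scaffold of a large initiation complex, led with -1.81 and -1.78.

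Other mRNAs of the TOP class were lower for 19 of 26 probe sets and higher for 0, with a median of -1.17, and 20 had an unadjusted p under 0.05. Nap1l1, a histone chaperone, differed by -2.57 and Npm1, a nucleolar protein of ribosome assembly, by -1.98. This list shares Eef1b2 and Eef1d, among others, with the elongation factors. It also holds the initiation factor Eif3h and the ribosomal protein gene Fau, so the lists are not independent of each other. Mitochondrial ribosomal proteins, which serve a separate ribosome and are not of the same mRNA class as a group, were lower for 27 of 107 probe sets and higher for 1, with a median of -0.43. Mrpl52 and Mrps24 led with -1.65 and -1.60.

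RNA polymerase I, which transcribes ribosomal RNA, had 3 of 14 probe sets lower and 0 higher, with a median of -0.44 and 7 at an unadjusted p under 0.05. Polr1a, its largest subunit, differed by -1.17 and Rrn3, an initiation factor for it, by -0.76. Of 21 probe sets for mTOR and Myc control, 3 were lower and 2 higher, with a median of -0.04. Myc, a transcription factor known to raise ribosome production, differed by -1.40, and Max, its partner, by 1.90. Fau, which encodes a small-subunit protein under another kind of symbol, differed by 0.16 with an adjusted p of 0.55.

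**Figure D3:**
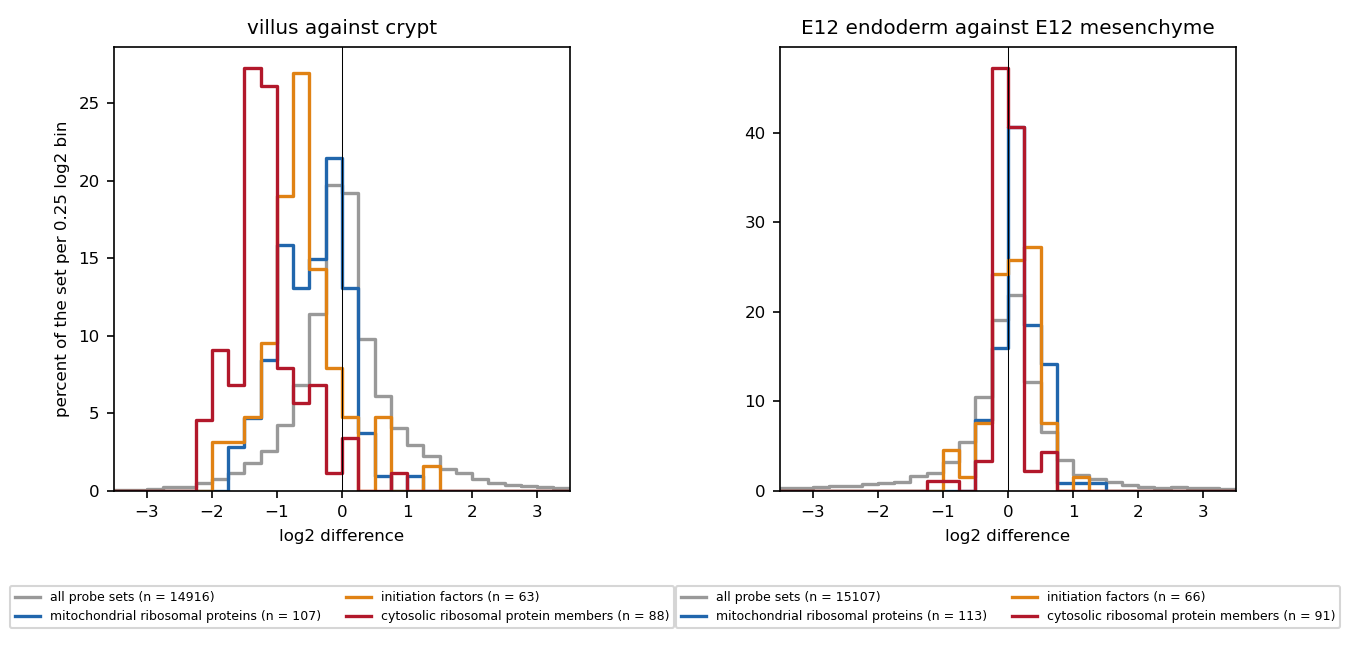
Percent of each set (vertical axis) per bin of log2 difference, 0.25 wide (horizontal axis), with villi compared with crypts on the left and the E12 layers compared on the right, and 1 line each for all tested probe sets, mitochondrial ribosomal proteins, initiation factors and the cytosolic ribosomal protein members. The members centre at -1.20 on the left, with initiation factors at -0.66 and mitochondrial ribosomal proteins at -0.43, and they form a narrow peak at -0.01 on the right.

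Between the E12 layers the ribosomal protein genes stayed within a narrow range. Of 91 member probe sets tested in the 6 arrays of the E12 table, 2 were lower in endoderm and 3 higher, against a background of 22.4% of 15107 probe sets lower and 23.7% higher. At an unadjusted p under 0.05, 5 were lower and 6 higher, against 7970 of all 15107 probe sets in either direction. The median difference was -0.01, and 80 of the 91 lay within 0.25 of 0. Centring each array on its median, which moves the median of all probe sets from 0.02 to 0.13 and the higher share of all calls from 51.4% to 62.0%, gave 1 member lower and 8 higher with a member median of 0.10. Without endoderm 2, 5 members were lower and 5 higher, and without endoderm 4, mesenchyme 2 or mesenchyme 3, 1 was lower.

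These members were near the top of the range in this table, where 55 had a mean above the 99th percentile of 12.51. None of these 55 was called, with a median of -0.01, against 4 lower and 5 higher among 58 other probe sets as bright. All 5 calls came from the 22 members below the 95th percentile. The median SD of a member was 0.07 in endoderm and 0.06 in mesenchyme. Whether signals near the top understate a difference was not tested. Markers of red cells, smooth muscle, endothelium and neural cells were each lower in endoderm for all genes measured, 11 in total.

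Rps4l was the clearest of the 5, with 10.46, 10.54 and 10.52 in endoderm and 9.89, 9.81 and 9.75 in mesenchyme replicates 2, 3 and 4. The layers did not overlap, and the difference was 0.69 ± 0.08 (SE, 3 arrays per group), 1.61-fold, with an adjusted p of 4.5e-04. In the pair from 35 fetuses it read 10.06 in endoderm and 8.67 in mesenchyme. It was called in each of the fits that left out 1 array.

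Rps24 1455195_at was the largest fall, with 5.48, 4.63 and 5.12 in endoderm and 6.14, 6.14 and 6.39 in mesenchyme. It differed by -1.15 ± 0.21 (SE, 3 arrays per group) with an adjusted p of 0.0035, and the pair from 35 fetuses read 4.77 and 6.06. This is a dim probe set of a gene whose other probe sets were not called. Rpl14, a large-subunit protein, read 9.01, 8.76 and 8.73 in endoderm against 8.05, 8.31 and 8.47 in mesenchyme, a difference of 0.56 with an adjusted p of 0.013. Rpl14 and Rps24 were called in all fits that left out 1 array.

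The last 2 calls were of dim probe sets. Rps20 1421935_at differed by 0.66 with an adjusted p of 0.020, and Rps18 1421837_at by -0.34 with an adjusted p of 0.021. They were called in 2 and 3 of the 6 fits without 1 array. All 5 calls had the same direction in the pair from 35 fetuses, which shares no array with the test, where Rps20 differed by 0.57, Rps18 by -0.28 and Rpl14 by 0.41. Over the 91 probe sets that pair had a median of 0.11, a range of -1.28 to 1.39 and 32 negative differences.

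The largest differences without a call were Rps20 1450417_a_at at 0.68 (adjusted p of 0.051), Rpl12 at -0.76 (adjusted p of 0.075) and Rps4x 1420303_x_at at 0.36 (adjusted p of 0.054). Smaller ones were Rpl27a 1437729_at at 0.28, Rpl37a 1416218_x_at at -0.27, Rps10 1436384_at at -0.25, Rps15 at -0.20 and -0.19, and Rpl13a 1417608_a_at at -0.18. Rps27l differed by 0.19 to 0.23 over its probe sets, with the smallest adjusted p at 0.085. The stalk genes Rplp0 and Rplp2 differed by -0.07 and 0.09, Rpsa by 0.07, Rpl41 by -0.01 and Rps27 by -0.12. Rpl7 differed by -0.14 to -0.17, Rpl7l1 by 0.01 and 0.13, Rpl22 by -0.13 and 0.04, Rpl22l1 by -0.08 and Rpl39 by 0.01.

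Other translation lists are given beside the same background of 22.4% lower and 23.7% higher. Mitochondrial ribosomal proteins were higher in endoderm for 36 of 113 probe sets and lower for 8, with a median of 0.17, led by Mrps31 at 1.34 and Mrps18b at 1.20. RNA polymerase I was higher for 7 of 22 and lower for 1, with Polr1b at 1.29 and Polr1e at 1.01. The elongation factor list was higher for 4 of 10 probe sets and lower for 0, with Eef1e1 at 0.58 and Eef1d at 0.48. Eef1e1 carries such a symbol but is not itself an elongation factor.

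Initiation factors were higher for 16 of 66 probe sets and lower for 4, and the largest called differences were Eif1b at -0.85 and Eif4a2 at -0.79. Other TOP mRNAs were higher for 2 of 26 and lower for 1, Eif3h at -0.29. For mTOR and Myc control, 5 of 23 were higher and 2 lower, with Mycn, a relative of Myc, at 1.51 and Rps6kb2, a kinase of ribosomal protein S6, at -0.69.

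**Figure D4:**
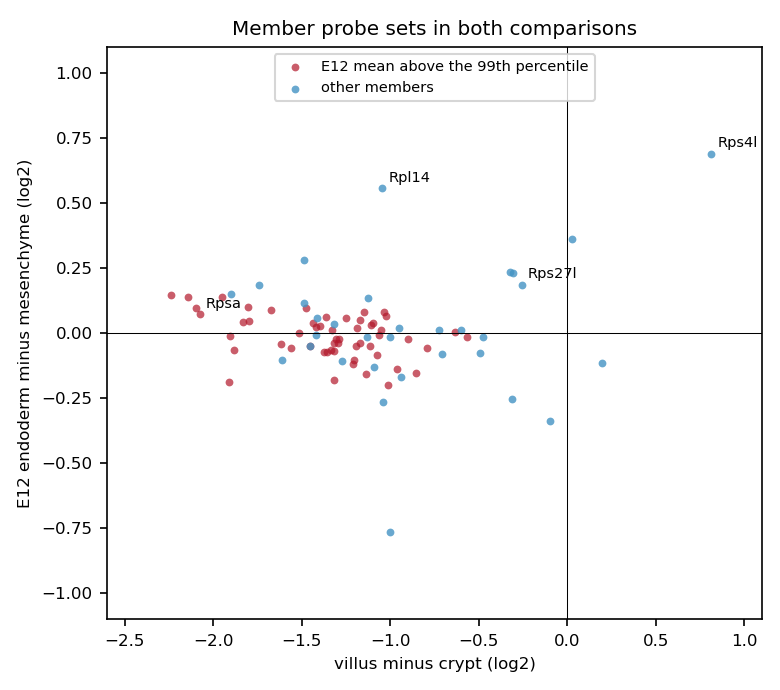
Log2 difference between villus and crypt (horizontal axis) and between E12 endoderm and E12 mesenchyme (vertical axis) for the 87 member probe sets tested in both, in red where the E12 mean lies above the 99th percentile of 12.51 and in blue otherwise. The red points lie between -0.25 and 0.25 on the vertical axis while spreading from -2.24 upward on the horizontal axis, and Rps4l is the point furthest to the upper right.

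The villus and E12 comparisons share no array. Across the 87 probe sets tested in both, Pearson's r was 0.07 and Spearman's rho -0.21, as a description over probe sets that share genes and probes.

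Crypts were next set against E12 endoderm, the layer from which the epithelium forms, within the adult table. The endoderm has 1 array there and so no spread of its own, and the 4 groups shared 1 estimate. Of 89 member probe sets, 5 were lower and 1 higher in crypts, against a background of 14.5% of 15217 probe sets lower and 7.54% higher. The median member difference was -0.35. The higher share of all calls was 34.1%, and 44.7% after quantile normalization, which gave 5 members lower and 2 higher with a median of -0.15.

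Rpl22 1448398_s_at, for a large-subunit protein known to bind other RNAs, read 8.09, 8.17 and 7.89 in crypts, 7.40, 6.35 and 7.11 in villi and 10.58 in the lone endoderm array. Crypts differed from endoderm by -2.53 with an adjusted p of 0.0042, while the other Rpl22 probe set differed by -0.77 with an adjusted p of 0.24. Rps4l differed by -2.36 (adjusted p of 0.0047), from 10.06 in endoderm to 7.44, 7.71 and 7.97 in crypts. Rpl14 differed by -1.74 (adjusted p of 0.013), and Rpl22l1 by -1.47 (adjusted p of 0.033). The fifth lower probe set was Rps20 1421935_at, named after its values were seen, at -0.80 with an adjusted p of 0.039.

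Rps24 1436500_at was the single member higher in crypts, by 1.05 with an adjusted p of 0.0096, at 7.73, 7.69 and 7.46 against 6.57 in endoderm. Rpl13a 1433928_a_at at -1.96 and Rpl27a 1437729_at at 1.39 were not called, with adjusted p of 0.056 and 0.054, nor were Rps20 1456373_x_at at 0.89 and Rps29 1438859_x_at at 0.68. Smaller differences were those of Rpsa at -0.42, Rplp0 at -0.22, Rplp2 at 0.10 and Rpl41 at -0.19, with adjusted p from 0.65 to 0.90. Without villus 41, which enters the shared spread, 13 members were lower and 3 higher. Without crypt 12 or 21 there were 3 lower, without crypt 12, villus 12 or villus V275 there were 2 higher, and with the crypt and endoderm arrays alone there were 17 lower and 3 higher. Rpl22l1 was called in 5 of the 7 fits without 1 array, and its adjusted p reached 0.088.

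Villi were lower than E12 endoderm for 58 of the 89 probe sets, of 36 genes, and higher for 0, against a background of 21.6% lower and 15.8% higher. With the villus and endoderm arrays alone 11 were lower. The endoderm is 1 array here, so the tissue and the error of that array cannot be told apart. At an unadjusted p under 0.05 in limma, 74 were lower and 1 higher, and eBayes with a trend and robust setting called 1 higher. The median member difference was -1.58, a 3.00-fold lower signal, while the median of all probe sets was 0.11. This comparison and the previous one use the same endoderm array, and both share arrays with the comparison of villi and crypts.

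Rpl22 1448398_s_at had the largest difference, at -3.62 (adjusted p of 3.8e-04), and the other Rpl22 probe set differed by -2.08. Rpl13a 1433928_a_at read 7.93, 6.04 and 6.99 in villi 12, 41 and V275 against 10.40 in endoderm and differed by -3.42 (adjusted p of 0.0039). Rps19, a small-subunit protein mutated in an inherited anaemia, differed by -2.85 (adjusted p of 0.010), and Rpl14 by -2.79 (adjusted p of 8.9e-04). Rpsa differed by -2.50, Rplp0 by -1.60 and Rplp2 by -1.57, with adjusted p of 0.023, 0.045 and 0.049. Among the copies, Rpl22l1 differed by -1.97 and Rpl7l1 by -1.70 and -1.56, all called.

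Some members of the same table differed little between villi and endoderm. Rps27l differed by -0.53, -0.12 and -0.10, Rps27 by -0.18 and Rpl39 by -0.14, with adjusted p from 0.29 to 0.83. The highest were Rps24 1436500_at at 0.57, Rps18 1421837_at at 0.44, Rps4x 1420303_x_at at 0.38 and Rpl35 1454833_at at 0.25, none of them called. Without crypt 12, 21 or 41, or villus V275, there were 34, 33, 36 or 35 members lower, and 1 higher without crypt 41. Rplp0 and Rplp2 were called in 3 and 2 of the 7 fits without 1 array, where their adjusted p reached 0.081 and 0.094.

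**Figure D5:**
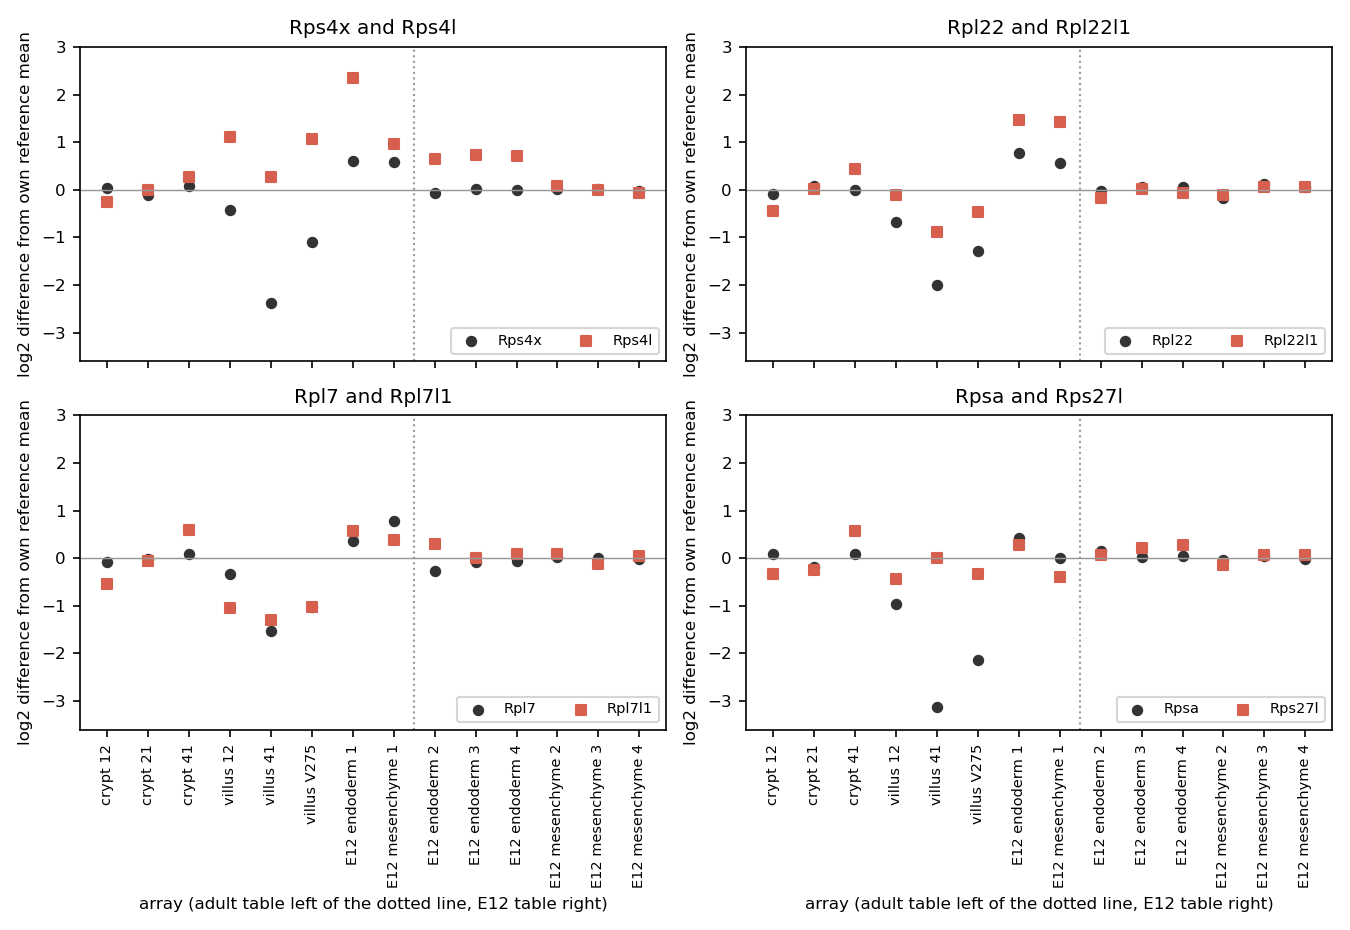
Log2 difference (vertical axis) of the probe set with the highest adult mean of each gene from its own crypt mean in the adult table, left of the dotted line, and from its own E12 mesenchyme mean in the E12 table, right of it, in all 14 arrays (horizontal axis), for Rps4x with Rps4l, Rpl22 with Rpl22l1, Rpl7 with Rpl7l1, and Rpsa with Rps27l. Rps4l is above its crypt mean in every villus array and in both lone E12 arrays. It is above its E12 mesenchyme mean in the other endoderm arrays. Rps4x, Rpl22, Rpl7 and Rpsa are below their crypt means in every villus array.

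Over the 4 groups, the adult table thus placed the median member highest in the E12 pair, at 11.73 and 11.76, then in crypts, from 11.21 to 11.47, then in villi, from 9.31 to 10.56. The crypt and E12 ranges lay close, and each E12 layer has 1 array in that order. Rps4l had another order, lowest in crypts, then villi, then 8.67 in the lone mesenchyme and 10.06 in the lone endoderm array, with villus 12 and V275 above that mesenchyme value.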

How the data were processed

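RNA was extracted on columns with DNase digestion, per the labels' protocols, and hybridised to single-colour arrays. The deposited values are log2 signals that the authors made with RMA (background correction, normalization across arrays and summary of probes), per the submitters' processing notes. Neither RMA's version nor a genome build is given in the sources used here. Signals near the bottom are mostly background, probes can saturate near the top, and the 2 tables, of 8 and 6 arrays, were treated apart.

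Probe sets were named from the platforms' gene table, and the 2297 without exactly 1 symbol were left out. Members and lists were chosen with earlier results of these data known. Probe sets above the 30th percentile in at least 3 arrays were tested with limma 3.58.1 (lmFit, eBayes; R 4.3.3), p-values were adjusted by Benjamini-Hochberg over every tested probe set, and calls were made under 0.05. Scripts were tested on simulated data. Named probe sets were the 8 largest differences in each direction in the villus and E12 layer comparisons, the 4 largest in each comparison with E12 endoderm, Rplp0, Rplp2, Rpsa, the copied genes with their parents, the brightest and dimmest members, and up to 2 called probe sets per list. Arrays carry no read depth, and their number limits the precision. Where the labels do not say that samples came from separate animals or pools, p-values measure only the spread among them, which may be technical. No pair of arrays held identical values, with at most 670 of 22690 equal. Alternatives were other scalings, filters, 1 value per gene, fewer or more members, limma settings, a replicate block, the 8 E12 arrays joined with the table as a block, and each array left out.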

Additional observations from a re-analysis of the deposited data

How the results depend on the processing

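Signs of the member medians held in all alternatives except between the E12 layers, where the median was near 0 (0.10 after centring, 0.03 after quantile normalization). In place of 65 of 88 lower in villi than in crypts, 36 of 47 were lower without _x_at and _s_at probe sets. With 1 value per gene, where the main fit tested 46 genes, 34 were lower with the brightest probe set and 38 with a gene's median. Without members above the 99th percentile 30 were lower. Each of these tested fewer probe sets, here and in the comparisons below, so the counts are not shares of the same total. Adding probe sets with several symbols, chosen after seeing the data, gave 135 lower and 2 higher. Leaving out arrays gave 12 to 76 lower and 0 to 1 higher, and 0 were higher with no filter. Quantile normalization kept all 65 among 82.

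Shared replicate numbers did not meet the criterion for pairing, and the labels do not say whether crypts and villi of 1 number share a mouse. Deviations of same-numbered samples correlated at 0.18 and 0.08 in adults, where only 2 numbers are shared and both pairs were the best correlation of their samples, and at 0.10, 0.10 and 0.16 in E12, where 0.096 was under the 0.1 needed, and E12 endoderm 3 correlated best with mesenchyme 4, so there not every sample correlates best with its own number. With the replicate block, 2 members were lower and 0 higher in villi (Rps25 and Rpl12), against 1892 calls in either direction over all tested probe sets. In that fit 57 members were lower at an unadjusted p under 0.05. Between E12 layers the block gave 2 members lower and 4 higher.

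Between E12 layers, 1 was lower and 6 higher after quantile normalization, 1 and 8 after centring, 5 and 6 with trend and robust, and 5 and 7 with several-symbol probe sets. 0 were lower with the 50th percentile filter, the brightest probe set or a gene's median, and leaving out arrays gave 1 to 5 lower and 2 to 5 higher. For crypt against E12 endoderm, 3 were lower with the 50th percentile filter or the brightest probe set, 17 lower and 3 higher with those arrays alone, and 9 and 2 with several-symbol probe sets. There 2 were higher with quantile normalization or trend and robust, 0 with a gene's median, and leaving out arrays gave 3 to 13 lower and 1 to 3 higher. Its median was -0.15 after quantile normalization and -0.49 without _x_at and _s_at probe sets. For villus against E12 endoderm, 34, 33, 36, 28 and 11 were lower with the brightest probe set, a gene's median, no _x_at or _s_at, no top members and those arrays alone, and 120 with several symbols. 1 was higher with centring, no filter or trend and robust, and leaving out arrays gave 33 to 74 lower and 0 to 1 higher.

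Single probe sets that changed sign were near 0 or replaced by their gene's median. With a gene's median, villus against crypt gave Rps4x -0.64 and Rpl35 -2.04, E12 gave Rpl22 -0.047, crypt against endoderm gave Rps24 -0.53, Rps27l 0.15 and Rpl7 -0.34, and villus against endoderm gave Rps24 -1.82, Rps18 -1.01, Rps4x -0.76 and Rpl35 -2.47. The replicate block gave Rpl35 -0.077. In E12, quantile normalization gave Rpl7l1 -0.017 and Rpl41 0.042, centring gave Rpl22l1 0.03, Rplp0 0.033 and Rpl41 0.093, and all 8 E12 arrays gave Rpl39 -0.057 and Rpl41 0.044. Quantile normalization gave Rps27l 0.085 for crypt and Rpl39 0.0073 for villus against endoderm.

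Leaving out arrays turned the sign of uncalled probe sets. In villus against crypt Rpl35 ran from -0.054 to 0.064, Rps4x from -0.042 to 0.14 and Rps27l from -0.43 to 0.033. In E12 Rpl22 ran from -0.052 to 0.098, Rpl39 from -0.017 to 0.032, Rpl7l1 from -0.125 to 0.245 and Rpl41 from -0.038 to 0.0017. Rps27l ran from -0.055 to 0.36 in crypt against endoderm and from -0.28 to 0.017 in villus against endoderm.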
